A study of Mus musculus with 2 samples.

Results

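The chemokine receptors described here are the 9 genes Ccr4, Ccr6, Ccr7, Ccr8, Ccr9, Cxcr3, Cxcr4, Cxcr5 and Cxcr6, picked out by symbol from tables of 23282 rows (23238 distinct gene symbols). They were chosen with the values of both libraries already known, so their counts and medians are descriptions and carry no test. All 9 had at least 10 reads in both libraries. To follow the effect of Tubastatin A, a selective inhibitor of the cytoplasmic deacetylase HDAC6 (abbreviated TSA here), naïve CD4+ T cells of wild-type (WT) mice were cultured under Treg-inducing conditions, and RNA was taken on day 1 from a culture with 10 μM TSA and from a culture with the vehicle DMSO. The cells came from spleens of female C57BL/6 mice used at 7 to 10 weeks of age. Both cultures received plate-bound anti-CD3ε, soluble anti-CD28, TGF-β1 (5 ng/ml), IL-2 (1 ng/ml) and antibodies that block IFN-γ and IL-4. There was 1 library per condition, so no difference below has a replicate check, and an effect of TSA cannot be told apart from a difference between the cultures or the library preparations.

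Chemokine receptors are G protein-coupled receptors that steer migrating cells along gradients of small secreted proteins, the chemokines. Signals pass mainly through inhibitory G proteins to the cytoskeleton and to integrins, and are damped by receptor kinases, arrestins and RGS proteins. In CD4+ T cells the set of receptors on the surface reflects where a cell goes. CCR7 holds naïve and central memory cells in lymph nodes, CXCR5 draws cells to B cell follicles, CCR9 to the small intestine, CCR4 and CCR8 to skin and other inflamed tissue, CCR6 to mucosal sites, and CXCR3 to sites of type 1 inflammation. CCR4, CCR6 and CCR8 are well known on Treg cells, and CCR6 is also the classical receptor of Th17 cells.

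Ccr6 and Ccr4 fell past 2-fold with TSA, and none of the other 7 receptors passed 2-fold in either direction. Over the 12164 genes for which 1 or both libraries held 10 or more reads (the genes compared), 3.15% were lower and 11.5% higher past 2-fold. At any size, 6 receptors were lower and 3 higher, against 48.6% and 51.3% of the genes compared. The 9 were chosen with these values known, so nothing is read from such shares. The starts of Ccr6 and Ccr4 are printed because only these 2 receptors passed 2-fold. Each window runs from 250 bases before to 50 bases after a transcript start in RefSeq (GRCm38.p6), 5′ to 3′ on the strand of the gene, and Ccr6 has 2 such windows. Of the 9 receptors, 7 matched an entry by symbol. Capitals mark letters that match 1 of 9 short motifs of factors active in T cells or of the TATA box, read on both strands.
Ccr4, chr9:114496495-114496794, minus strand: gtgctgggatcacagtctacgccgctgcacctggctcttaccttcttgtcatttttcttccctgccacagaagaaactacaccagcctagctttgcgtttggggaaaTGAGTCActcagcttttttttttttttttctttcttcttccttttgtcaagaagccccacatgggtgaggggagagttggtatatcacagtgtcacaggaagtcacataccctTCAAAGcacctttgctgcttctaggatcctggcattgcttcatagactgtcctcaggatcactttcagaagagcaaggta
Ccr6, upstream start, chr17:8235793-8236092, plus strand: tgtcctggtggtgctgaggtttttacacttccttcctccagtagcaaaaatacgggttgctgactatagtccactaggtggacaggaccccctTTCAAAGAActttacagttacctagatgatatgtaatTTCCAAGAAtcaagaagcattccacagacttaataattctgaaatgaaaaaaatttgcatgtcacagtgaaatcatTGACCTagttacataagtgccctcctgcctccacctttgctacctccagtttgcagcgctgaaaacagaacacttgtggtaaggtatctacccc
Ccr6, downstream start, chr17:8242276-8242575, plus strand: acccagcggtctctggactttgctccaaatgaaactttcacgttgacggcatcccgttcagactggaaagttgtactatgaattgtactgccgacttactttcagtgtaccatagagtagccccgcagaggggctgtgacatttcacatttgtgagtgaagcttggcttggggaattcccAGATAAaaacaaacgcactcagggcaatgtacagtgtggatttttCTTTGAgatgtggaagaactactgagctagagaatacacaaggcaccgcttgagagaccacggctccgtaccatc

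The motif of TCF and LEF factors (CTTTGA) was the 1 motif found in all 3 windows, and 16.0% of the 32851 RefSeq windows of this length hold it. The Ccr4 window also held the AP-1 letters TGACTCA, present in 5.20% of windows. The upstream Ccr6 window held the ROR letters AGGTCA (16.3% of windows) and 2 matches to the STAT letters TTCNNNGAA (8.30%), of which the first overlaps the TCF and LEF match. The downstream Ccr6 window held the GATA letters AGATAA (11.2%). The forkhead letters GTAAACA (3.65%), the KLF letters CCACCC (31.5%), the T-box letters AGGTGTG (5.84%) and the TATA letters TATAAA (13.6%) matched none of the 3 windows. Such matches describe the letters and not a site in use. The Ccr4 window held 3 CpG pairs and the Ccr6 windows held 2 and 10, against a median of 7 over all windows. Among the receptors with a window, the Cxcr4 window stood apart with 20 CpG pairs and a GC content of 59.3%.

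The libraries were made with QuantSeq, a method that reads the end of a transcript next to its poly(A) tail. A transcript then gives about 1 read whatever its length, so levels of different genes are compared below as CPM, reads scaled to the library's total on genes, with no division by length. The DMSO library held 10846171 reads on genes and the TSA library 10432643. Deposited values are log2 of a normalized count plus 1. A log2 fold change is the TSA value minus the DMSO value, a fold is that difference taken out of the log2 scale, and its 95% interval (exact, Clopper-Pearson) comes from how a gene's reads divide between the libraries. It compares these 2 libraries and covers counting error only, since copies made by PCR could not be told from other reads. A floor of 3 reads set the detection limit at a CPM of 0.277 (DMSO) and 0.288 (TSA), and all 9 receptors lay above it.

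The cells carried the markers of CD4+ T cells. Cd4 had 2434 reads in the DMSO library and 2549 in the TSA library, all 10 T cell markers examined had reads in both, and none of the 10 differed by more than 2-fold. Markers of other spleen cells had far fewer reads than Cd4, though some had as many as the less abundant receptors. The 9 B cell markers summed to 17 reads in the DMSO library and 30 in the TSA library, with Pax5 and Fcrla at 0 in both. Among those higher with TSA were Ebf1 (1 and 12 reads), Cd79a (1 and 5) and Ms4a1 (0 and 5). Cd79b (11 and 4) and Cd22 (3 and 0) were lower. The 9 myeloid markers summed to 39 and 38 reads, and S100a9 was at 0 in both. The 8 NK and CD8 markers summed to 161 and 173 reads, led by Cd8b1 (65 and 77) and Klrd1 (47 and 40), with Klrb1c at 0 in both. The 8 erythroid and platelet markers summed to 82 and 100. Of these, Hba-a1 had 28 and 28 reads, Hbb-bs 4 and 17, and Itga2b 20 and 15, with Hba-a2 at 0 in both. The 7 dendritic cell markers summed to 15 and 50 reads, of which Flt3 held 0 and 33, while Clec9a, Siglech and Cd209a were at 0 in both. In bulk RNA of this kind, fewer cells with a receptor and less RNA per cell cannot be told apart. The part of other cell types in the receptor reads was not tested.

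Ccr6 encodes the receptor for CCL20. It had 502 reads in the DMSO library and 85 in the TSA library, or a CPM of 46.3 and 8.15. Ccr6 was thus lower in the TSA library, with a fold change of 0.169 (95% interval 0.132 to 0.211) and a log2 fold change of -2.56. Of the 8188 genes whose normalized counts averaged 100 or more, 1.31% were lower and 1.48% higher past 2-fold, and Ccr6 ranked 1 from the bottom. Among all genes compared it ranked 36 from the bottom. The gene lies at chr17:8236043-8257141 on the plus strand, is protein-coding, and shares no base with another annotated gene.

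Ccr4 encodes the receptor for CCL17 and CCL22. It had 204 reads in the DMSO library and 41 in the TSA library, or a CPM of 18.8 and 3.93. The level was lower in the TSA library, with a log2 fold change of -2.30 and a fold of 0.203 (0.139 to 0.279), and the gene ranked 3 from the bottom of those 8188 genes and 56 from the bottom of all genes compared. The counting intervals of Ccr4 and Ccr6 both lay wholly below a fold of 0.5, as for 0.814% of all genes compared, and overlapped each other. No receptor had its interval wholly above 2-fold, where 4.97% of the genes compared lay. Ccr6 held 246 reads per 100 reads of Ccr4 in the DMSO library and 207 in the TSA library, so these receptors kept nearly the same ratio to each other. Their summed reads were 706 and 126, and the fold of the sum was 0.177 (0.145 to 0.214). Ccr4 lies at chr9:114490316-114504916 on the minus strand, and the RefSeq start printed above is inside this GENCODE span.

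**Figure D1:**
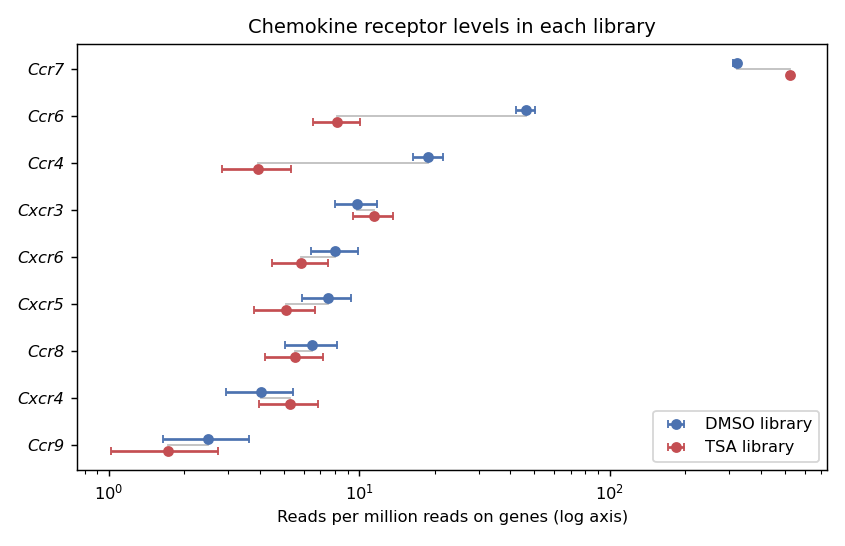
Level of each receptor gene in CPM (log axis) in the DMSO library (blue) and the TSA library (red). Bars are exact 95% Poisson intervals of the reads of 1 library each. The intervals of the 2 libraries lie apart for Ccr6, Ccr4 and Ccr7 and overlap for the other 6 genes.

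Ccr7, the receptor for CCL19 and CCL21, was the most abundant of the 9 in both libraries and the 1 with a clear difference upward. It had about 3484 reads in the DMSO library and 5495 in the TSA library, or a CPM of 321 and 527. The TSA level was 1.56-fold that of DMSO (95% interval 1.497 to 1.63), which is beyond counting error and under 2-fold. Of all genes compared, 17.4% had a fold as high or higher, and 28.1% had an interval wholly above no change, which places the step of Ccr7 inside the range of many other genes. Ccr7 lies at chr11:99144196-99155077 on the minus strand. Dendritic cells also express Ccr7, and their summed markers, given above, were higher with TSA (15 and 50 reads) through Flt3 (0 and 33) and Zbtb46 (2 and 11). Xcr1 (9 and 6) and Itgax (4 and 0) were not higher, and the other 3 were at 0 in both. Rows with reads in the TSA library alone were not rare, as 9588 rows were at 0 reads in the DMSO library and 8288 in the TSA library. The part of dendritic cells in the Ccr7 difference was not tested.

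Because Ccr7 moved up while Ccr6 and Ccr4 moved down, the ratios within a library, which do not depend on scaling, moved further than the single levels. For every 100 reads of Ccr7 there were 14.4 reads of Ccr6 in the DMSO library and 1.55 in the TSA library. The same ratio for Ccr4 was 5.86 and 0.746. Cxcr5 stood at 2.32 reads per 100 reads of Ccr7 in the DMSO library and 0.965 in the TSA library.

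Cxcr5 and Cxcr6 were lower in the TSA library by less than 2-fold. Cxcr5, the receptor for CXCL13, had 81 reads in the DMSO library and 53 in the TSA library, at a fold of 0.652 (0.449 to 0.927). The last exon of Cxcr5 shares 110 bases with Bcl9l, a gene on the opposite strand with 649 and 717 reads. QuantSeq reads fall at such gene ends, and whether reads were counted by strand is not given in the sources used here, so reads of these 2 genes may not be fully separated. With upper-quartile scaling the interval of Cxcr5 ran from 0.525 to 1.08 and held no change. Cxcr6, the receptor for CXCL16, had 87 reads in the DMSO library and 61 in the TSA library, at a fold of 0.698 (0.492 to 0.974). The gene lies within an intron of Fyco1, which is on the opposite strand and had 149 and 125 reads. The interval of Cxcr6 held no change with total-read scaling (0.517 to 1.02) and with upper-quartile scaling (0.575 to 1.14).

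Ccr9, the receptor for CCL25, had the fewest reads. There were 27 in the DMSO library and 18 in the TSA library, and the fold change of 0.672 had an interval from 0.342 to 1.24. Exons of Ccr9 share up to 1876 bases with AC165425.1 on the opposite strand and 269 with Gm17200 on the same strand, so reads of these genes may not be fully separated either. Ccr8, the receptor for CCL1, had 70 reads in the DMSO library and 58 in the TSA library, at a fold of 0.823 (0.569 to 1.18). At this depth neither gene could be told from no change. The interval of Ccr8 lay wholly above that of Ccr4, the other receptor linked to skin homing. There were 291 reads of Ccr4 per 100 reads of Ccr8 in the DMSO library and 70.7 in the TSA library.

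Cxcr3 and Cxcr4 were slightly higher in the TSA library, within counting error. Cxcr3, the receptor for CXCL9, CXCL10 and CXCL11 and a mark of Th1 cells, had 106 reads in the DMSO library and 119 in the TSA library, at a fold of 1.11 (0.848 to 1.46). Cxcr4, the receptor for CXCL12, had 44 and 55 reads, at a fold of 1.23 (0.818 to 1.88). Neither interval reached 2-fold as deposited, though that of Cxcr4 ran up to 2.20 with upper-quartile scaling.

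**Figure D2:**
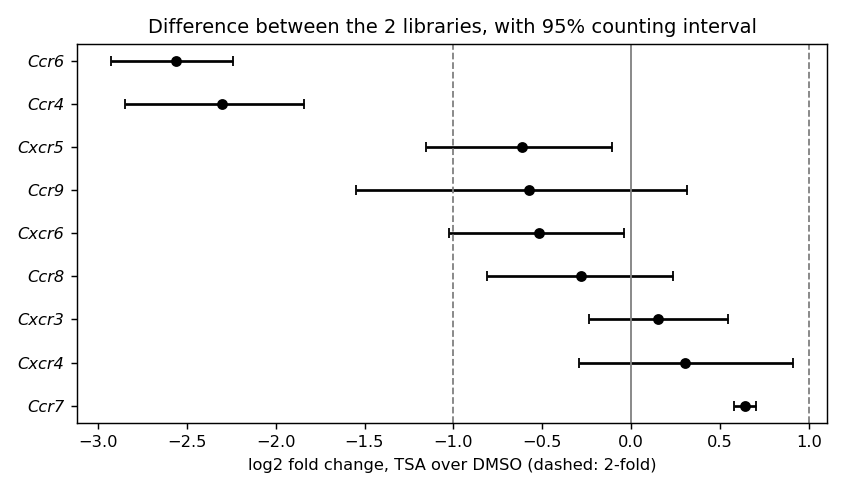
log2 fold change of each receptor gene (TSA over DMSO, deposited values) with its exact 95% counting interval. Dashed lines mark 2-fold. Ccr6 at -2.56 and Ccr4 at -2.30 lie with their whole intervals below the lower line, and Ccr7 at 0.64 has the narrowest interval.

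In all, 4 of the 9 receptors (Ccr6, Ccr4, Cxcr5 and Cxcr6) had an interval wholly below no change, against 28.0% of all genes compared, 1 (Ccr7) wholly above it, and 4 had an interval that held no change. The number with an interval wholly below was 3 with total-read scaling and 2, Ccr6 and Ccr4, with upper-quartile scaling. The median log2 fold change of the 9 was -0.52, against 0.015 for all 12164 genes compared. The fold changes are set against all genes in the plot of fold change by mean level, where Ccr6 and Ccr4 lie at the lower edge of the cloud.

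**Figure D3:**
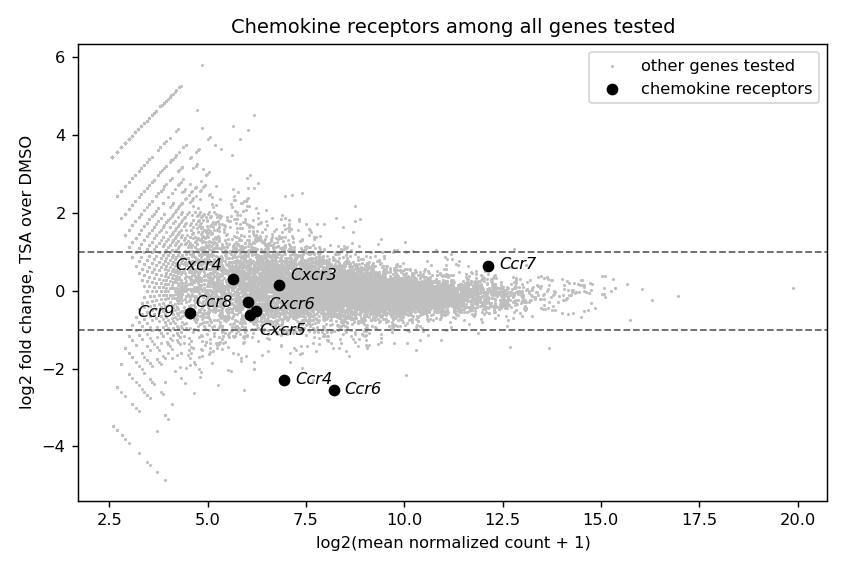
log2 fold change (TSA over DMSO) by log2 of the mean normalized count plus 1 for the 12164 genes compared (grey) and the 9 receptor genes (black). Dashed lines mark 2-fold. Ccr6 and Ccr4 lie at the lower edge of the genes of their level and the other 7 receptors lie between the lines.

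The order of the receptors changed between the libraries. In the DMSO library the order by CPM was Ccr7 (321), Ccr6 (46.3), Ccr4 (18.8), Cxcr3 (9.77), Cxcr6 (8.02), Cxcr5 (7.47), Ccr8 (6.45), Cxcr4 (4.06) and Ccr9 (2.49). The intervals of Ccr7, Ccr6 and Ccr4 did not overlap those of their neighbours, and from Cxcr3 downward each gene overlapped the next. In the TSA library Ccr7 (527) was followed by Cxcr3 (11.4), Ccr6 (8.15), Cxcr6 (5.85), Ccr8 (5.56), Cxcr4 (5.27), Cxcr5 (5.08), Ccr4 (3.93) and Ccr9 (1.73). There, Ccr7 stood clear of Cxcr3, and Ccr4 (2.82 to 5.33) of Ccr9 (1.02 to 2.73), while the other neighbours overlapped. Ccr4 dropped from place 3 to place 8 and Ccr6 from place 2 to place 3.

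The reads of all 9 receptors summed to 4605 in the DMSO library and 5985 in the TSA library, and Ccr7 set that sum, with 75.7% of it in the DMSO library and 91.8% in the TSA library. The other 8 receptors went from 1121 to 490 reads, at a fold of 0.433 (0.388 to 0.482). Most of that difference lay in Ccr6 and Ccr4, since the remaining 6 genes went from 415 to 364 reads, at a fold of 0.869 (0.752 to 1.002) with an interval that reached no change. Among the 8 receptors without Ccr7, Ccr6 held 44.8% of the reads in the DMSO library (95% interval 41.8 to 47.7) and 17.3% in the TSA library (14.1 to 21.0). Cxcr3 went the other way, from 9.46% (7.81 to 11.3) to 24.3% (20.6 to 28.3), although its own level did not differ beyond counting error. For every 100 reads of Cxcr3 there were 474 reads of Ccr6 in the DMSO library and 71.4 in the TSA library.

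**Figure D4:**
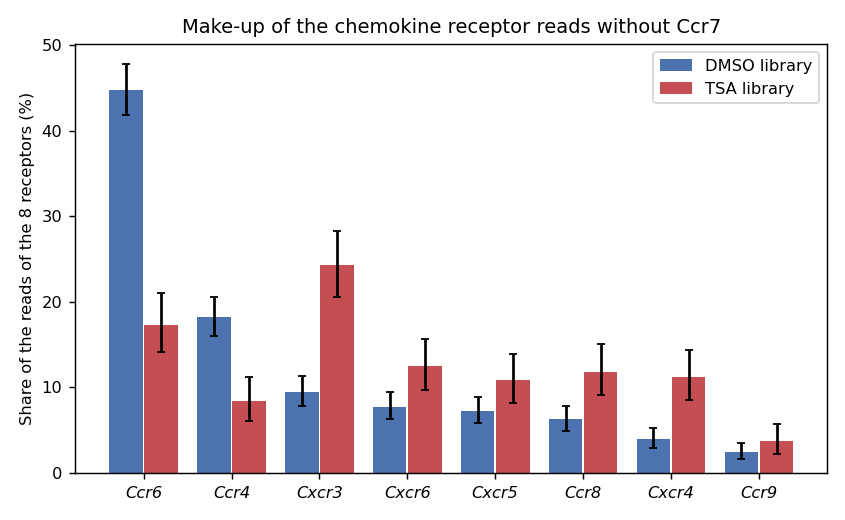
Share of the reads of the 8 receptors other than Ccr7 held by each, in the DMSO library (blue) and the TSA library (red), with exact 95% binomial intervals. Ccr6 goes from 44.8% to 17.3% and Ccr4 from 18.2% to 8.37%, while Cxcr3 goes from 9.46% to 24.3%.

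The genome places 5 of the 9 genes on chromosome 9: Cxcr5 at chr9:44511787-44561877, Ccr4, Ccr8 at chr9:120092114-120094906, Ccr9 at chr9:123678439-123784330 and Cxcr6 at chr9:123806475-123811760. Cxcr4 lies at chr1:128588199-128592293 and Cxcr3 at chrX:101731535-101734269. Positions and gene types are those of GENCODE M21 on GRCm38, the assembly the submitters name as mm10, and all 9 are protein-coding. After the data were seen, the nearest gene with enough reads was looked up on each side of a receptor, leaving out the 9 receptors themselves and genes that overlap the receptor. Of 18 such neighbours, 3 rose and 2 fell past 2-fold, with a median of -0.10 on the log2 scale. The neighbours of Ccr6, Fgfr1op and Mpc1, had log2 fold changes of -0.63 and -0.32. On 1 side of Ccr4, Glb1 had 187 and 222 reads. On the other side Trim71, which ends 2217 bases before the start of the GENCODE span of Ccr4 and lies on the same strand, had 0 reads in the DMSO library and 35 in the TSA library, at least 11.6-fold higher with the DMSO library set at 3 reads. Such a rise from 0 was not particular to this place. Over all rows, 9588 were at 0 reads in the DMSO library and 8288 in the TSA library. Cacna1e, for example, went from a deposited log2 value of 0.012 to 4.99. Beside Ccr7, Tns4 had 42 and 6 reads.

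The other chemokine receptors were mostly silent. Of 15 further receptor genes, 8 had no read in either library and 4 had enough reads to compare. Cx3cr1, the fractalkine receptor and the neighbour of Ccr8, had 24 reads in the DMSO library and 57 in the TSA library, at a fold of 2.30 (1.44 to 3.96). Ccrl2, an atypical receptor, had 6 and 18 reads, and Ccr2, the receptor for CCL2, had 4 and 12, with an interval of its fold change (0.900 to 12.6) that held no change. All 3 were past 2-fold upward, but Ccrl2 and Ccr2 could be compared only through their TSA reads. Cxcr2 had 11 and 10 reads. Only Cx3cr1 and Cxcr2 had 10 or more reads in both libraries.

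Some ligands of the 9 receptors had reads in the cultures and others had none. Of 14 ligand genes, 6 were at 0 in both libraries (Ccl8, Ccl17, Ccl19, Ccl21a, Cxcl12 and Cxcl13), among them all those listed for CCR7, CXCR4 and CXCR5. Another 7 could be compared, and 1 rose and 1 fell past 2-fold. Their median difference on the log2 scale was 0.19. Ccl1, the ligand of CCR8, was the most abundant, with 271 reads in the DMSO library and 313 in the TSA library. Ccl20, the ligand of CCR6, had 48 and 86 reads, at a fold of 1.76 (1.23 to 2.58), the opposite direction to its receptor gene. Ccl22, a ligand of CCR4, had 43 and 33 reads, within counting error. Ccl25, the ligand of CCR9, was lower by more than 2-fold, with 43 and 13 reads and a fold change of 0.315 (0.148 to 0.567). Cxcl10, a ligand of CXCR3, was higher, with 10 and 28 reads and a fold change of 2.61 (1.31 to 6.40).

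Among 22 other chemokine genes, 9 could be compared and none passed 2-fold. Xcl1, Ccl4 and Ccl3, made by activated T cells, were the most abundant. Xcl1 had 1967 reads in the DMSO library and 1687 in the TSA library, Ccl4 had 1625 and 1501, and Ccl3 had 438 and 237, at a fold of 0.537 (0.456 to 0.629). The median log2 fold change of the 9 was 0.22.

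Genes of the signalling machinery below the receptors lay mostly near the DMSO level. Of 30 compared, 2 rose and 1 fell past 2-fold. Their median difference on the log2 scale was 0.020. Gnai2, the main inhibitory G protein α subunit of lymphocytes, had 7615 and 8695 reads, and Rac2, a GTPase that drives the actin cytoskeleton, had 3765 and 4164. Gnb1, a G protein β subunit, had 3890 and 3994. Rasgrp2, which activates the integrin switch Rap1, had 119 reads in the DMSO library and 314 in the TSA library, at a fold of 2.60 (2.11 to 3.25). Gnb4, another β subunit, had 60 and 144 reads, at a fold of 2.35 (1.75 to 3.27). Pik3r6, a regulatory subunit of PI3Kγ, had 15 reads and 1 read, with a counting interval of the fold change from 0.00157 to 0.429.

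RGS proteins switch off G protein signals. None of the 9 RGS genes compared passed 2-fold, and their median log2 fold change was -0.26. Rgs1 had 2855 reads in the DMSO library and 3359 in the TSA library, Rgs16 had 1411 and 1053, and Rgs10 had 1071 and 1249.

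Other receptors that guide lymphocytes were examined in the same way. Of 18 such genes 12 could be compared, and none rose and 1 fell past 2-fold. Their median difference on the log2 scale was 0.19. Of the 12, 6 had an interval wholly above no change and 2 wholly below, against 28.1% and 28.0% of all genes compared. S1pr1, S1pr2 and S1pr4 had folds of 1.78 (1.47 to 2.18), 1.84 (1.39 to 2.48) and 1.38 (1.19 to 1.60). Ptgdr2 had a fold of 0.564 (0.451 to 0.698). Ptger4, a prostaglandin E2 receptor, had 1060 and 1208 reads, Gpr83 had 611 and 825, and Gpr174 had 652 and 620. Cmklr1, the chemerin receptor, had 10 reads in the DMSO library and 1 in the TSA library, with a counting interval of the fold change from 0.00228 to 0.696.

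Of 13 homing adhesion genes, all of which could be compared, 1 rose and none fell past 2-fold, with a median difference of 0.044 on the log2 scale. Itgal, an integrin α subunit of LFA-1, had 2406 and 2489 reads, Selplg, the selectin ligand PSGL-1, had 2290 and 2408, and Cd44 had 2168 and 2257. Itgae, which encodes CD103, had 17 reads in the DMSO library and 39 in the TSA library, at a fold of 2.20 (1.26 to 4.28).

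**Figure D5:**
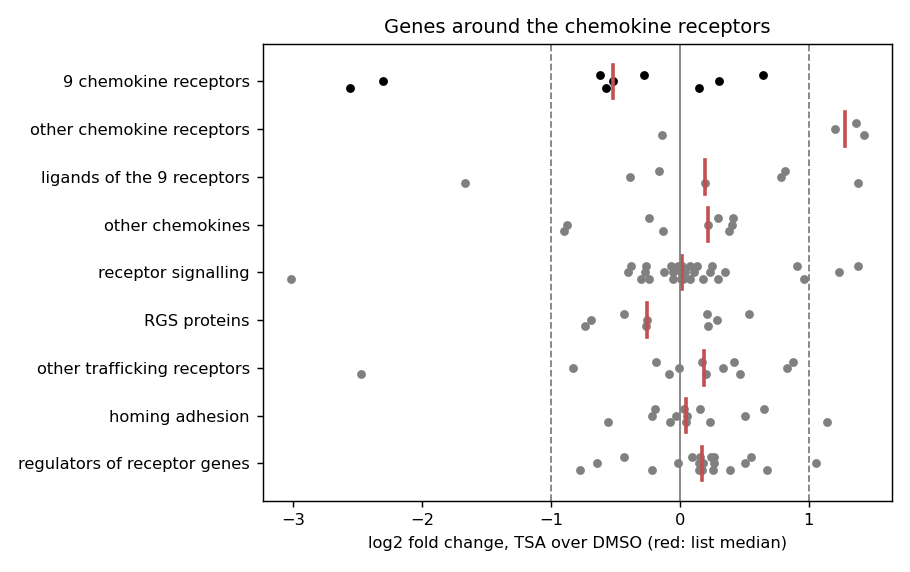
log2 fold change (TSA over DMSO) of each gene compared (10 or more reads in either library), for the 9 receptors (black) and 8 lists of related genes (grey). Red lines are list medians and dashed lines mark 2-fold. The 9 receptors and the RGS proteins have medians below 0, at -0.52 and -0.26.

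Transcription factors known to act on receptor genes were mostly close to the DMSO level. Of 20 compared, 1 rose and none fell past 2-fold. The median of the list was 0.18 on the log2 scale. The gene past 2-fold was Klf2, a factor of quiescent T cells known for driving egress receptors, with 1158 reads in the DMSO library and 2436 in the TSA library, at a fold of 2.08 (1.94 to 2.24). Irf4, a factor induced by T cell receptor signals, had 6675 and 10749 reads, and Bach2, a repressor of effector genes, had 4493 and 5141. Stat5a, which relays IL-2 signals, had 2120 and 2535.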

How the data were processed

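QuantSeq libraries were sequenced by the authors (single-end, 75 nt) and processed with ExDEGA. The submitters' processing notes list Bowtie2, bedtools and mm10. The deposited unit is log2(normalized count + 1), and the normalization method is not given in the sources used here.

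Values brought back to the linear scale fell on steps of 1.005 (DMSO) and 0.995 (TSA) normalized counts per read. Of values worth 1 to 300 reads, 99.95% and 99.94% lay within 0.1 of a whole read. Reads above that range are approximate, because 3 decimals were deposited. With 1 library per condition no p-value was computed. The threshold was 2-fold, for genes with 10 or more reads in either library. Alternatives changed the scaling, pseudocount, filter and threshold. The steps were tested on simulated data.

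The receptors and gene lists were chosen with earlier results of these data known. The text names the 9 receptors and, from each other list, the genes past 2-fold and the 3 with the highest mean level. Of marker lists it gives sums and genes at 0. Cd4, Flt3, Zbtb46, Xcr1, Itgax, the ligands at 0 and the neighbouring and overlapping genes were named after their values were seen. So were Cacna1e, S1pr1, S1pr2, S1pr4, Ptgdr2 and the B cell, NK, CD8, erythroid and platelet markers named with reads. With 2 libraries no genes could be named for a similar pattern. Software: matplotlib 3.10.9, pandas 2.3.3, scipy 1.17.1, numpy 2.4.6, Python 3.11.15.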

Additional observations from a re-analysis of the deposited data

How the results depend on the processing

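No paired analysis was possible because each condition had a single library, which also means that leaving out replicates was not run. Ccr6 and Ccr4 were lower past 2-fold under each scaling and pseudocount tried, with log2 fold changes between -2.57 and -2.34 for Ccr6 and between -2.33 and -2.08 for Ccr4. All 9 receptors kept their direction under these settings. The log2 fold change of Ccr7 was 0.71 with total reads and 0.87 with upper-quartile scaling, which moved the median of all genes from 0.015 to 0.24. Of all genes past 2-fold, 78.5% were higher as deposited (1400 higher, 383 lower). The share was 87.8% with upper-quartile scaling (1747 higher, 243 lower), 85.9% for whole intervals past 2-fold (604 higher, 99 lower) and 82.2% with total reads. It was 70.1% both with no filter (2817 higher, 1200 lower) and with 10 or more reads in both libraries (524 higher, 223 lower), 69.2% at a threshold of 1.5-fold (2279 higher, 1014 lower) and 66.3% with a mean normalized count of 50 or more (278 higher, 141 lower). Depth limits Ccr9 most.

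Some counts moved by over 1.5 times. The cause was not tested, except that stricter filters compare fewer genes. Upper-quartile scaling gave 3 ligands, 4 signalling genes and 2 other trafficking receptors higher past 2-fold, and 2 of the 9 receptors with an interval wholly below no change, the last chosen after seeing the data. A pseudocount of 5 gave 0 adhesion genes higher. With no filter, 2 other chemokines were higher and 1 lower, 1 RGS gene was higher, and 1 other trafficking receptor was higher and 4 were lower. With 10 or more reads in both libraries, 1 other chemokine receptor was higher, and 0 signalling genes and 0 other trafficking receptors were lower. With a mean of 50 or more, other chemokine receptors, ligands and adhesion genes had 0 higher, and ligands, signalling genes and other trafficking receptors had 0 lower. At 1.5-fold, 1 of the 9 receptors (Ccr7), 3 ligands, 4 signalling genes, 2 other trafficking receptors, 2 adhesion genes and 2 regulators were higher, and 2 other chemokines, 2 RGS genes, 2 other trafficking receptors and 2 regulators were lower. With the whole interval past 2-fold, other chemokine receptors, ligands, adhesion genes and regulators had 0 higher, 1 signalling gene was higher, and ligands and other trafficking receptors had 0 lower. Leaving Ccr7 out of the sum put the share of Ccr6 at 44.8% (DMSO) and 17.3% (TSA), of Ccr4 at 18.2% and 8.37%, and of Cxcr3 at 9.46% and 24.3%.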
